A study of Mus musculus with 6 samples.

Results

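The Rab family of small GTPases was described in bulk RNA sequencing of pancreas from wild-type (WT) mice, with 3 libraries from animals given cerulein and 3 from animals given saline. Members were the rows of the deposited count table whose symbol is Rab followed by a number and at most 1 letter, and which held at least 30 counts summed over the 6 libraries. Of 36333 rows, 59 carried such a name and 50 passed that minimum. The rule uses the symbol and the summed count and no difference between the groups, but the family was proposed with earlier results of these data known. Rab36 (44 counts) and Rab17 (51 counts) lay just inside the minimum, and Rab40b (28 counts) and Rab19 (18 counts) lay just outside. Cerulein is a peptide analogue of cholecystokinin that overstimulates the acinar cells of the pancreas and is a standard way to induce acute pancreatitis in mice. It was injected intraperitoneally 10 times in a volume of 200 µl at 200 µg/kg/h, and tissue RNA was taken as soon as the injections were finished. The control mice received intraperitoneal saline. The comparison asks how expression differs at this early stage of the disease. The sources used here give no strain, sex or age, and do not say whether each library came from a separate animal.

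Rab proteins are molecular switches that alternate between a GDP-bound and a GTP-bound form and give membranes their identity. Guanine nucleotide exchange factors (GEFs) load them with GTP, GTPase-activating proteins (GAPs) switch them off, and effectors that bind the GTP form carry out vesicle transport, tethering and fusion. A lipid anchor is added by geranylgeranyl transferase, and GDP dissociation inhibitors (GDIs) recycle the proteins between membranes. In acinar cells, digestive enzymes are stored in zymogen granules, and Rab3d and Rab27b are the best known Rabs on the granule membrane.

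Total counts per library were between 6307887 and 7610775 in cerulein pancreas and between 5335117 and 7194125 in saline pancreas. Levels are given as CPM, the read count relative to a library size scaled with TMM factors. These factors were 1.13 to 1.30 in cerulein libraries and 0.719 to 1.03 in saline libraries. The 20 genes of highest total took 37.1% ± 2.8 of counts in cerulein libraries and 62.5% ± 6.4 in saline libraries (SD, n = 3 each), so the scaling bears on every level below. The first principal component (82% of variance) separated the groups, and the second (8.65%) spread the saline libraries, with replicates 1 and 2 at its opposite ends. Saline replicate 1 differed from the other saline libraries in its acinar, islet and leukocyte sums, given next. All 6 acinar markers examined fell, and their summed level was 75581, 89743 and 76261 CPM in cerulein replicates 1, 2 and 3 and 118050, 252413 and 238690 CPM in saline replicates 1, 2 and 3. Of 6 duct markers 5 rose and 1 fell, with sums of 878 to 1106 CPM in cerulein libraries and 136 to 170 CPM in saline libraries. Of 10 leukocyte markers 1 rose, and their sums were 345, 364 and 356 CPM in cerulein libraries and 365, 67.0 and 167 CPM in saline libraries. Of 8 tested islet markers 3 fell, with sums of 1573, 1680 and 1013 CPM in cerulein libraries and 822, 1932 and 1918 CPM in saline libraries, and Iapp was listed at 0 in all 6. Of 5 fibroblast and stellate cell markers 2 rose and 1 fell, with sums of 282 to 376 CPM in cerulein libraries and 325 to 372 CPM in saline libraries. Of 4 endothelial markers 1 fell, with sums of 91.6 to 105 CPM in cerulein libraries and 95.5 to 112 CPM in saline libraries. In bulk tissue, fewer cells of a type and less RNA per cell cannot be told apart.

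Of the 50 Rab genes, 45 passed the filter on low counts, and 18 of them were higher and 7 lower in cerulein pancreas than in saline pancreas at an adjusted p under 0.05 (edgeR quasi-likelihood test, Benjamini-Hochberg adjustment over 12441 genes). By role, all 5 tested Rabs of secretory granules fell (Rab3d turned to a log2 fold change of 0.094 with library size alone), 6 of 7 tested early endosome Rabs rose, and none of 6 tested recycling endosome Rabs was called. The granule count was 3 of 5 without cerulein replicate 2, saline replicate 2 or saline replicate 3, where the calls of Rab3d and Rab26 were lost, and 2 of 5 with library size alone. The early endosome count was 3 of 7 with upper-quartile scaling, with DESeq2 and without cerulein replicate 2, cerulein replicate 3 or saline replicate 3, where all 3 Rab5 calls were lost. Among recycling endosome Rabs, Rab4b was called with upper-quartile scaling, limma-voom or a replicate block, and Rab11a with library size alone. Among all genes tested, 28.7% were called higher and 27.1% lower. At least 2-fold higher were 8 Rab genes, against 18.3% of all genes, and at least 2-fold lower were 4 Rab genes, against 17.7% of all genes. The cerulein libraries lay wholly above the saline libraries for 18 Rab genes (32.4% of all genes) and wholly below them for 9 (30.6% of all genes), and they overlapped for the other 18. The median log2 fold change was 0.19 for the tested Rab genes and 0.00 for all genes tested. Without saline replicate 1, 17 Rab genes were called higher and 7 lower, 9 of them at least 2-fold higher and 5 at least 2-fold lower. In that fit 46 Rab genes were tested, the calls of Rab8a, Rab5b and Rab5a were lost, and Rab32 was gained. The remaining added call was of a member below the filter with all 6 libraries. The number of Rab genes tested ran from 44 to 50 over the alternatives. The number of higher calls was 10 with upper-quartile scaling and 28 with library size alone. Without saline replicate 2, and again without saline replicate 3, only 5 Rab genes were at least 2-fold higher. Of the 45, 42 were over the filter in all 6 libraries. Rab3a was over it in 1 cerulein library and 3 saline libraries, so it passed through the group where it was high, Rab7b in 3 cerulein and 2 saline libraries, and Rab13 in 2 cerulein and 1 saline library.

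**Figure D1:**
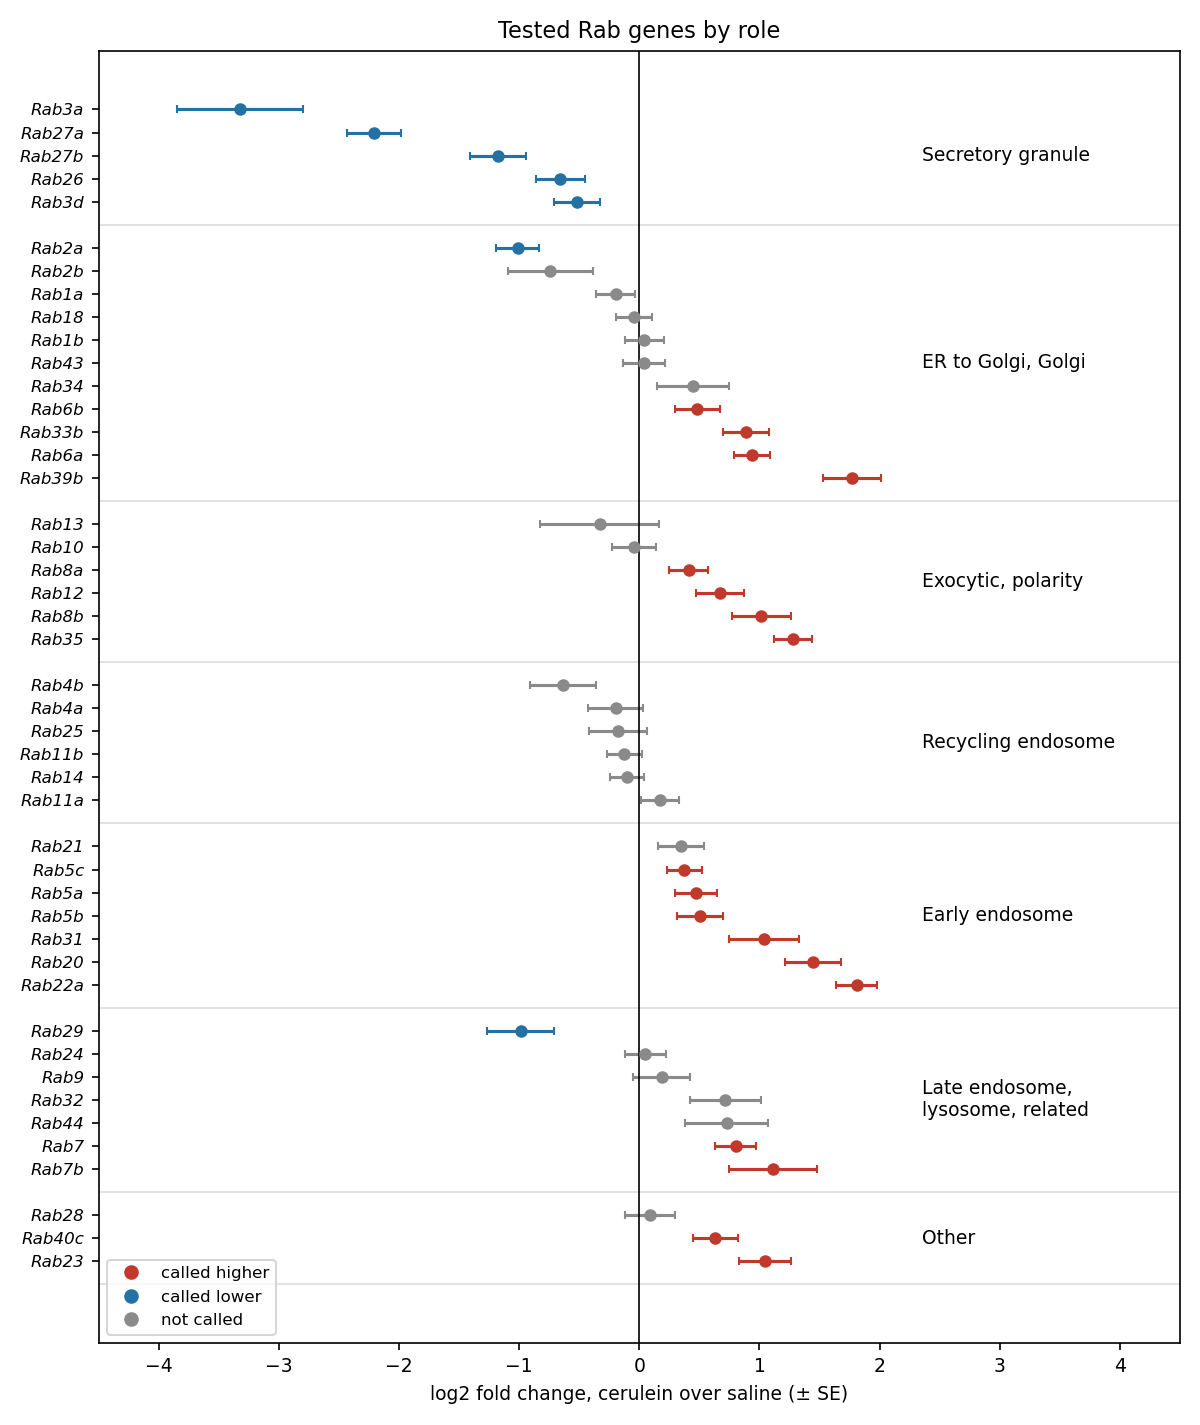
The log2 fold change of each of the 45 tested Rab genes, cerulein over saline, with its standard error as a bar, grouped by role and colored by call. The 5 secretory granule Rabs lie between -3.33 and -0.52 (Rab3d at 0.094 with library size alone), and the 7 early endosome Rabs between 0.35 and 1.81.

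Promoters from RefSeq (GRCm38.p6, 250 bases before to 50 after an annotated start) were found for 40 of the 50 members, 17 of them called higher and 4 called lower. They were searched on both strands for the E-boxes CATATG and CAGCTG and for TGANTCA, the AP-1 site. The first of these is the E-box preferred by MIST1, an acinar factor encoded by Bhlha15, and AP-1 sites bind the FOS and JUN proteins. Bhlha15 averaged 144 ± 30 CPM in cerulein libraries and 372 ± 48 CPM in saline libraries (log2 fold change -1.36 ± 0.20). CATATG occurred in 1 member promoter, at the second start of Rab27a, and in 3.92% of all 32851 promoters searched. CAGCTG occurred in 16.3% of all promoters, in those of Rab22a, Rab5b, Rab6a and Rab6b among members called higher, Rab27a and Rab3a among those called lower, Rab11a and Rab2b among those not called, and Rab15 and Rab17, which were not tested. TGANTCA occurred in 7.81% of all promoters and in those of Rab39b, called higher, Rab34, not called, and Rab15, not tested. A further set of motifs was searched in the same way. Among tested members, the CRE TGACGTCA (1.79% of all promoters) occurred in promoters of Rab5a and Rab25, and the CLEAR core TCACGTGA (0.974%) in those of Rab5a, Rab21 and Rab24. The NRF2 motif TGACNNNGC (12.4%) occurred in promoters of Rab22a, Rab7, Rab8a and Rab8b among members called higher and of Rab24, Rab25, Rab43 and Rab4b among those not called. The percentages count single promoters, whereas a member is named if any of its starts holds a match. Member promoters had a median GC content of 62.3%, against 52.7% for all promoters, so the percentages are not a like comparison. Shown are the promoters of the most abundant granule Rab, of the Rab27a start that holds both E-boxes, and of the 2 Rabs with the largest rises, 5′ to 3′ along the gene's strand. Only matches to the E-boxes and the AP-1 site are in capitals, so the NRF2 match of Rab22a is not marked. A match describes the letters only.
Rab3d (chr9:21918134-21918433, minus strand, no match): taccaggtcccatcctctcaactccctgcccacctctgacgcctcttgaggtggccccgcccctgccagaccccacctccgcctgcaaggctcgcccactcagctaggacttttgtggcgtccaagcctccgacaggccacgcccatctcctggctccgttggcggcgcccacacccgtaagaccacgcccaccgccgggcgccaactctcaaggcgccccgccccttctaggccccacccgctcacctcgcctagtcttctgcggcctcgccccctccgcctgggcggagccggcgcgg
Rab27a, second start (chr9:73063898-73064197, plus strand, CATATG at base 225 and CAGCTG at base 236, counted from the 5′ end): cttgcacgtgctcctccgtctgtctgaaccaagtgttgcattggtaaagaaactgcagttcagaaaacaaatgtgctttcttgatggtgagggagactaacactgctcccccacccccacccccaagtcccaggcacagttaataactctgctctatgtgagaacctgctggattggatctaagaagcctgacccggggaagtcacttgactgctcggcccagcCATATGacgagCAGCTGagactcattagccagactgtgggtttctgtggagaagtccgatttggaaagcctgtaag
Rab22a (chr2:173659595-173659894, plus strand, CAGCTG at base 259): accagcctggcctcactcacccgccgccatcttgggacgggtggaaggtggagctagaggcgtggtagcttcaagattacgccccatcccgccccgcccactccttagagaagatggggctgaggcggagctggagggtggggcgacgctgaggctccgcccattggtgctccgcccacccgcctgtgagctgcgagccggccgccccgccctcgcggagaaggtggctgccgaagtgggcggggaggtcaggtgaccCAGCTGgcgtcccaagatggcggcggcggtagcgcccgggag
Rab39b (chrX:75578182-75578481, minus strand, TGANTCA at base 248): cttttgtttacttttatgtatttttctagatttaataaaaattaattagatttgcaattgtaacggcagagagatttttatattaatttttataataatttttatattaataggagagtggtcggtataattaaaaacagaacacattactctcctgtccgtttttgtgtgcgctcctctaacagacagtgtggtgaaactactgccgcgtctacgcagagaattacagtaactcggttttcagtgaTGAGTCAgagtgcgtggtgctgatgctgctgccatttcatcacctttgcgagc

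The 5 tested Rabs of secretory granules were lower in cerulein pancreas, by 1.43-fold to 10.0-fold with TMM scaling, and Rab3d alone changed direction with library size alone. Rab3d, the major Rab of the zymogen granule membrane, had 176, 194 and 197 CPM in cerulein replicates 1, 2 and 3 and 203, 288 and 325 CPM in saline replicates 1, 2 and 3. All 3 cerulein values were below all 3 saline values, with saline replicate 1 close to the cerulein range. The log2 fold change of Rab3d was -0.52 ± 0.19 (SE; adjusted p = 0.0344, edgeR). Rab27b, which acts with Rab3d in the docking and release of zymogen granules, had 12.9, 11.8 and 12.8 CPM in cerulein libraries and 25.1, 20.2 and 40.0 CPM in saline libraries. The cerulein libraries were nearly level and the saline libraries spread widely above them, with a log2 fold change of -1.17 ± 0.23 (adjusted p = 0.000816, edgeR). Rab27a, the close relative of Rab27b that docks lysosome-related organelles and secretory granules, had 11.2, 6.89 and 8.56 CPM in cerulein libraries and 31.0, 45.6 and 47.7 CPM in saline libraries. Its log2 fold change of -2.21 ± 0.23 (adjusted p = 3.62e-06, edgeR) corresponds to a level 4.63-fold lower in cerulein pancreas, and the groups were far apart.

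Rab3a, the Rab3 form of synaptic vesicles and endocrine granules, had 2.59, 1.17 and 0.252 CPM in cerulein libraries and 9.45, 14.2 and 18.2 CPM in saline libraries. Its counts were over the filter in only 1 cerulein library. This was the largest difference among the tested members, with a log2 fold change of -3.33 ± 0.52 (adjusted p = 0.000367, edgeR), and it was -4.198 without cerulein replicate 1. Rab26, a Rab of secretory granules in exocrine glands, had 16.3, 15.5 and 16.1 CPM in cerulein libraries and 18.2, 30.8 and 27.5 CPM in saline libraries. The groups did not overlap, but saline replicate 1 lay close to the cerulein libraries, and the log2 fold change was -0.66 ± 0.20 (adjusted p = 0.0144, edgeR). Without saline replicate 1, the log2 fold changes were -0.73 for Rab3d and -0.90 for Rab26. The acinar marker sum was likewise lowest among saline libraries in replicate 1, and the part of acinar or islet content in these results was not tested. The smaller differences were not stable. The Rab3d call was lost without cerulein replicate 1, 2 or 3 or without saline replicate 2 or 3 (log2 fold changes from -0.54 to -0.40, adjusted p from 0.063 to 0.14, edgeR), and with library size alone Rab3d was at 0.094. The same call was also lost without a count filter. The Rab26 call was lost without cerulein replicate 2, saline replicate 2 or saline replicate 3 (log2 fold changes from -0.63 to -0.49, adjusted p from 0.052 to 0.065, edgeR). With library size alone Rab26 was at -0.05 and Rab27b at -0.59, both uncalled, and of the 5 only Rab3a and Rab27a were then called.

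**Figure D2:**
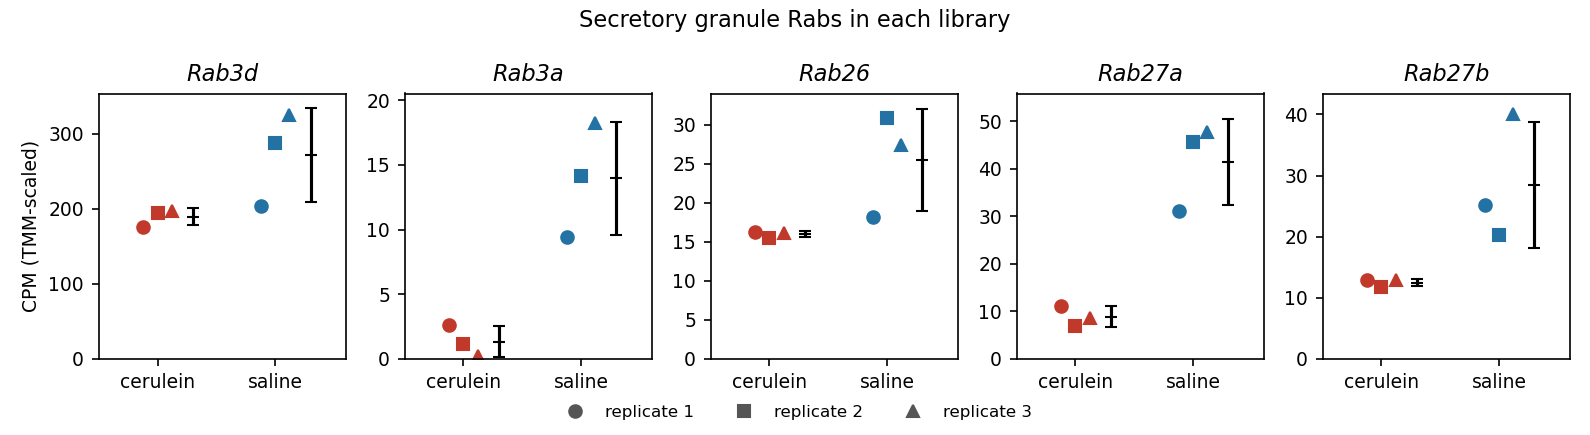
TMM-scaled CPM of the 5 tested secretory granule Rabs in each cerulein library (red) and each saline library (blue), with marker shapes for replicates and bars for mean ± SD (n = 3). For each gene all 3 cerulein libraries lie below all 3 saline libraries, most widely for Rab27a and Rab3a (Rab3d turned with library size alone), and saline replicate 1 is the lowest saline library for all but Rab27b.

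Shares within the family do not depend on how libraries are scaled. Secretory granule Rabs made up 12.1%, 11.5% and 12.2% of all Rab counts in cerulein libraries and 18.2%, 20.9% and 24.9% in saline libraries. Early endosome Rabs took 18.3%, 17.9% and 18.7% in cerulein libraries and 12.8%, 12.8% and 11.1% in saline libraries. Both shares were separated between the groups, in opposite directions. Late endosome, lysosome and related Rabs took 14.5% to 17.4% in cerulein libraries and 11.3% to 11.6% in saline libraries, and exocytic and polarity Rabs 8.65% to 9.56% in cerulein libraries and 5.34% to 7.04% in saline libraries. Recycling endosome Rabs took 12.2% to 13.0% in cerulein libraries and 13.5% to 15.7% in saline libraries, and ER and Golgi Rabs 28.8% to 30.9% in cerulein libraries and 32.0% to 33.3% in saline libraries. None of these shares overlapped between the groups. Each gave p = 0.1 in a two-sided exact permutation test, which is the lowest value possible with 3 libraries against 3. Shares of a fixed sum are tied to one another and are not separate results.

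The balance of some near relatives also differed. Of the summed counts of Rab27a and Rab27b, Rab27a made up 46.6%, 36.9% and 40.0% in cerulein libraries and 55.3%, 69.3% and 54.4% in saline libraries, so its share of their counts was lower in every cerulein library than in every saline library. Per kilobase of exon, Rab27a was the higher of the 2 in both groups, at 2.29 against 1.17 CPM in cerulein pancreas and 10.7 against 2.66 CPM in saline pancreas. Without a length correction, mean CPM in cerulein libraries was 8.89 for Rab27a and 12.5 for Rab27b. The order there thus rests on the merged exon lengths used, 3.879 kilobases for Rab27a and 10.679 for Rab27b. Of the counts of the 4 Rab3 genes, Rab3a made up 1.45%, 0.596% and 0.127% in cerulein libraries and 4.44%, 4.67% and 5.295% in saline libraries. Rab3d held nearly all the rest, at 98.3% to 99.6% in cerulein libraries and 94.4% to 95.3% in saline libraries. The Rab3b and Rab3c rows held 15 and 10 counts over the 6 libraries and were not members. Of the Rab8 pair, Rab8b made up 37.0%, 35.6% and 36.8% in cerulein libraries and 37.8%, 20.5% and 21.0% in saline libraries, where saline replicate 1 was level with the cerulein libraries. Outside the granule Rabs, 2 more pairs were separated, each narrowly. Rab11a made up 38.8% to 41.7% of Rab11a and Rab11b counts in cerulein libraries and 31.2% to 38.7% in saline libraries. Rab1b made up 24.7% to 26.6% of Rab1a and Rab1b counts in cerulein libraries and 21.5% to 24.6% in saline libraries. The Rab6, Rab4 and Rab2 pairs overlapped. The division of Rab5 counts among Rab5a, Rab5b and Rab5c overlapped between the groups for each of the 3 genes. These shares are of raw counts, are not corrected for gene length, and do not rank the genes by level.

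**Figure D3:**
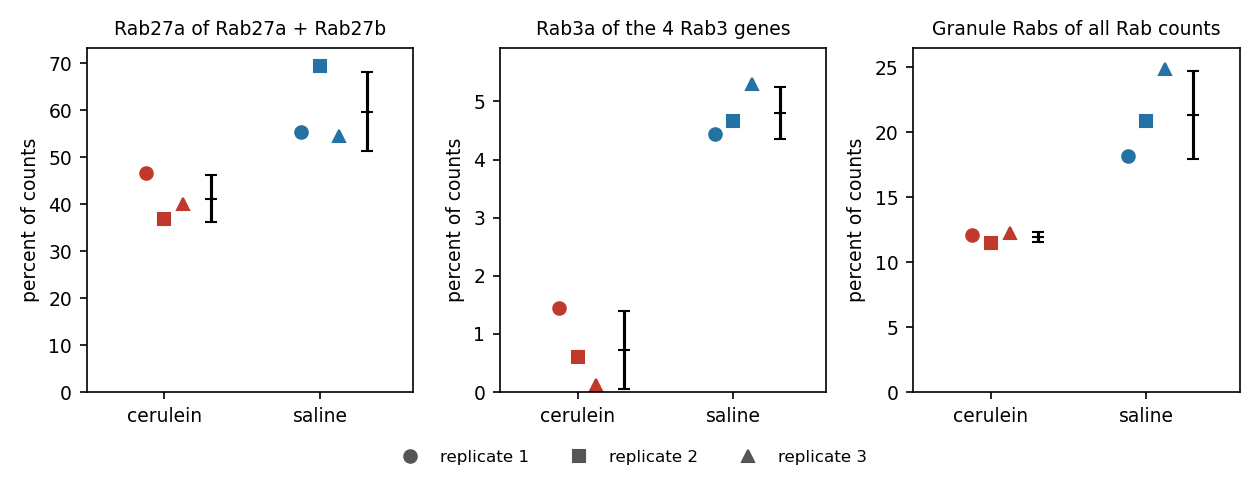
The percent of counts taken by Rab27a within Rab27a and Rab27b, by Rab3a within the 4 Rab3 genes, and by secretory granule Rabs within all Rab genes, for each cerulein library (red) and each saline library (blue), with bars for mean ± SD (n = 3). In each panel all cerulein libraries lie below all saline libraries, and the granule share is 11.5% to 12.2% in cerulein libraries and 18.2% to 24.9% in saline libraries.

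Early endosome Rabs were higher in cerulein pancreas, with 6 of 7 called and 3 at least 2-fold higher. Rab22a, which guides cargo taken up without clathrin back to the cell surface, had 57.3, 68.9 and 61.5 CPM in cerulein libraries and 18.2, 20.2 and 14.9 CPM in saline libraries. This was the largest rise in the family, a log2 fold change of 1.81 ± 0.17 (adjusted p = 1.46e-06, edgeR). Rab20, known from the maturation of phagosomes in macrophages, had 24.1, 26.5 and 21.5 CPM in cerulein libraries and 7.02, 12.6 and 7.18 CPM in saline libraries. Its groups were well separated, with a log2 fold change of 1.44 ± 0.23 (adjusted p = 0.000162, edgeR), although 25.6% of its exonic bases lie over exons of E230013L22Rik. Rab31, which carries cargo from the trans-Golgi network to endosomes, had 18.4, 14.4 and 13.1 CPM in cerulein libraries and 10.9, 5.85 and 4.62 CPM in saline libraries. Saline replicate 1 lay closest to the cerulein libraries, and the log2 fold change was 1.04 ± 0.29 (adjusted p = 0.00836, edgeR).

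The 3 forms of Rab5, the Rab that drives fusion of early endosomes, rose by less. Rab5b averaged 105 ± 7.0 CPM in cerulein libraries and 74.1 ± 19.9 CPM in saline libraries (SD, n = 3 each), a log2 fold change of 0.51. Rab5c averaged 72.5 ± 3.3 CPM in cerulein libraries and 55.8 ± 5.2 CPM in saline libraries, a log2 fold change of 0.38. Rab5a averaged 59.2 ± 10.9 CPM in cerulein libraries and 42.8 ± 6.9 CPM in saline libraries, a log2 fold change of 0.47, and its groups overlapped. The adjusted p of these 3 was 0.0365 to 0.0386 (edgeR). All 3 calls were lost with upper-quartile scaling (log2 fold changes of 0.31 for Rab5b, 0.27 for Rab5a and 0.18 for Rab5c), with DESeq2, and without cerulein replicate 2, cerulein replicate 3 or saline replicate 3. Over those 3 left-out libraries the log2 fold change was 0.46 to 0.53 for Rab5b, 0.33 to 0.50 for Rab5a and 0.35 to 0.42 for Rab5c. Leaving out cerulein replicate 1 also ended the calls of Rab5b (0.56) and Rab5c (0.39), saline replicate 1 those of Rab5b (0.28) and Rab5a (0.40), and saline replicate 2 that of Rab5c (0.32). Rab21, which traffics integrins through early endosomes, was not called at 14.3 ± 1.1 CPM in cerulein libraries and 11.3 ± 1.0 CPM in saline libraries (log2 fold change 0.35 ± 0.19). Leukocyte marker sums were higher in saline replicate 1 (365 CPM) than in the other saline libraries (67.0 and 167 CPM), and their part in the levels of Rab31 was not tested. Without saline replicate 1 the log2 fold change of Rab31 was 1.51 and that of Rab20 was 1.23.

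Of the 7 tested Rabs of late endosomes, lysosomes and lysosome-related organelles, 2 rose and 1 fell. Rab7, which directs late endosomes and autophagosomes to fuse with lysosomes, had 188, 244 and 209 CPM in cerulein libraries and 109, 132 and 128 CPM in saline libraries. The groups did not overlap, and the log2 fold change was 0.80 ± 0.17 (adjusted p = 0.00125, edgeR). Rab7b, which acts between late endosomes and the trans-Golgi network, had 11.3, 7.70 and 5.79 CPM in cerulein libraries and 5.13, 4.05 and 1.80 CPM in saline libraries. Cerulein replicate 3 and saline replicate 1 were close together, and the log2 fold change of 1.11 ± 0.37 (adjusted p = 0.0197, edgeR) was no longer called with upper-quartile scaling (0.93, adjusted p = 0.055), without cerulein replicate 1 (0.84, adjusted p = 0.099) or without saline replicate 3 (0.83, adjusted p = 0.080). Rab29, a Rab linked to LRRK2 and the trans-Golgi network, was at 3.64 ± 0.22 CPM in cerulein libraries and 7.33 ± 1.21 CPM in saline libraries, a log2 fold change of -0.99 ± 0.28 (adjusted p = 0.00859, edgeR). Rab32, a Rab of melanosomes and other lysosome-related organelles, had 11.0, 12.6 and 13.0 CPM in cerulein libraries and 11.2, 4.72 and 5.39 CPM in saline libraries. Saline replicate 1 lay within the cerulein range, and the log2 fold change was 0.72 ± 0.30 (adjusted p = 0.0547, edgeR) with all libraries and 1.24 (adjusted p = 0.00069, edgeR) without saline replicate 1. With all libraries, Rab32 was called with library size alone, relative log expression factors, no count filter, a CPM filter, limma-voom or a replicate block. Rab44 had log2 fold changes of 0.73 with all libraries and 1.04 without cerulein replicate 1, where it was called (adjusted p = 0.013, edgeR). Rab44 was also called with library size alone, without a count filter and with a replicate block. Rab9 (0.19) and Rab24 (0.05) were not called.

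Exocytic and polarity Rabs rose in 4 of 6 cases. Rab35, which controls a fast recycling route to the plasma membrane and the actin beneath it, had 61.3, 66.1 and 68.5 CPM in cerulein libraries and 25.9, 31.9 and 22.8 CPM in saline libraries. The libraries of each group were close together and the groups far apart, with a log2 fold change of 1.28 ± 0.16 (adjusted p = 2.15e-05, edgeR). Rab8a and Rab8b, which bring vesicles from the Golgi to the cell surface, had log2 fold changes of 0.41 and 1.01. Rab12, which steers the transferrin receptor to degradation, had a log2 fold change of 0.67, and its call was lost with upper-quartile scaling (0.47). The Rab8a call was lost with upper-quartile scaling (0.21), with DESeq2 (0.40), with relative log expression factors (0.40) and without cerulein replicate 2 (0.39), cerulein replicate 3 (0.37), saline replicate 1 (0.28) or saline replicate 3 (0.44). Rab10, a partner of the exocyst, had a log2 fold change of -0.05 and Rab13, a Rab of tight junctions, one of -0.33, and neither was called.

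Among the 11 tested Rabs of the endoplasmic reticulum (ER) and Golgi, 4 rose and 1 fell. Rab39b, a Golgi and neuronal Rab mutated in human X-linked intellectual disability, had 15.2, 16.5 and 20.02 CPM in cerulein libraries and 3.78, 6.07 and 5.64 CPM in saline libraries. No value of one group came near the other, and the log2 fold change was 1.77 ± 0.24 (adjusted p = 4.35e-05, edgeR). Rab6a, which returns membrane through the Golgi, was at 70.3 ± 1.0 CPM in cerulein libraries and 36.7 ± 5.1 CPM in saline libraries, and Rab33b, which binds the autophagy protein ATG16L1, at 21.3 ± 2.1 CPM in cerulein libraries and 11.6 ± 1.8 CPM in saline libraries. Their log2 fold changes were 0.94 and 0.89. Rab6b had a log2 fold change of 0.48 (adjusted p = 0.0396, edgeR), and its call was lost with upper-quartile scaling (0.29), with DESeq2 and without cerulein replicate 1 (0.46), cerulein replicate 2 (0.46), saline replicate 2 (0.48) or saline replicate 3 (0.31). Rab2a, which acts in transport between ER and Golgi, had 54.7, 65.6 and 55.3 CPM in cerulein libraries and 90.8, 143 and 121 CPM in saline libraries, a log2 fold change of -1.01 ± 0.18 (adjusted p = 0.000374, edgeR). Rab2a was thus lower in cerulein pancreas in every library, while Rab1a and Rab1b, which act in the same step, had log2 fold changes of -0.20 and 0.04 and were not called. Rab18, Rab34, Rab43 and Rab2b were not called either, at log2 fold changes of -0.05, 0.45, 0.04 and -0.74. With upper-quartile scaling, however, Rab1a and Rab2b were called lower. With library size alone Rab1b, Rab18, Rab34 and Rab43 were called higher, and the calls of Rab2a (-0.41) and Rab29 (-0.40) were lost. The contrast between Rab2a and the Rab1 genes therefore depends in part on scaling.

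None of the 6 tested recycling endosome Rabs was called. The log2 fold changes were 0.17 for Rab11a, -0.10 for Rab14, -0.13 for Rab11b, -0.18 for Rab25 and -0.20 for Rab4a. Rab11a averaged 51.8 ± 3.2 CPM in cerulein libraries and 46.2 ± 7.0 CPM in saline libraries, and Rab11b 76.4 ± 6.1 CPM in cerulein libraries and 83.3 ± 6.9 CPM in saline libraries. These are the Rabs that return receptors from the recycling compartment to the surface, and in epithelia Rab11a and Rab25 serve the apical membrane. Rab4b had a log2 fold change of -0.63 ± 0.27 (adjusted p = 0.0650, edgeR) with non-overlapping groups, but 58.1% of its 50-base stretches also occur in other genes. Rab4b was called lower with upper-quartile scaling, with limma-voom and with a replicate block, and Rab11a was called with library size alone. Of the remaining Rabs, Rab23, an antagonist of Hedgehog signaling in mice, had 13.2, 13.2 and 15.1 CPM in cerulein libraries and 6.21, 6.07 and 7.95 CPM in saline libraries. Its log2 fold change was 1.05 ± 0.22 (adjusted p = 0.00117, edgeR). Rab40c, part of a ubiquitin ligase, had a log2 fold change of 0.63, with its call lost without cerulein replicate 1 (0.55) and with upper-quartile scaling (0.44). Rab28, a Rab of cilia, had one of 0.09 and was not called.

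**Figure D4:**
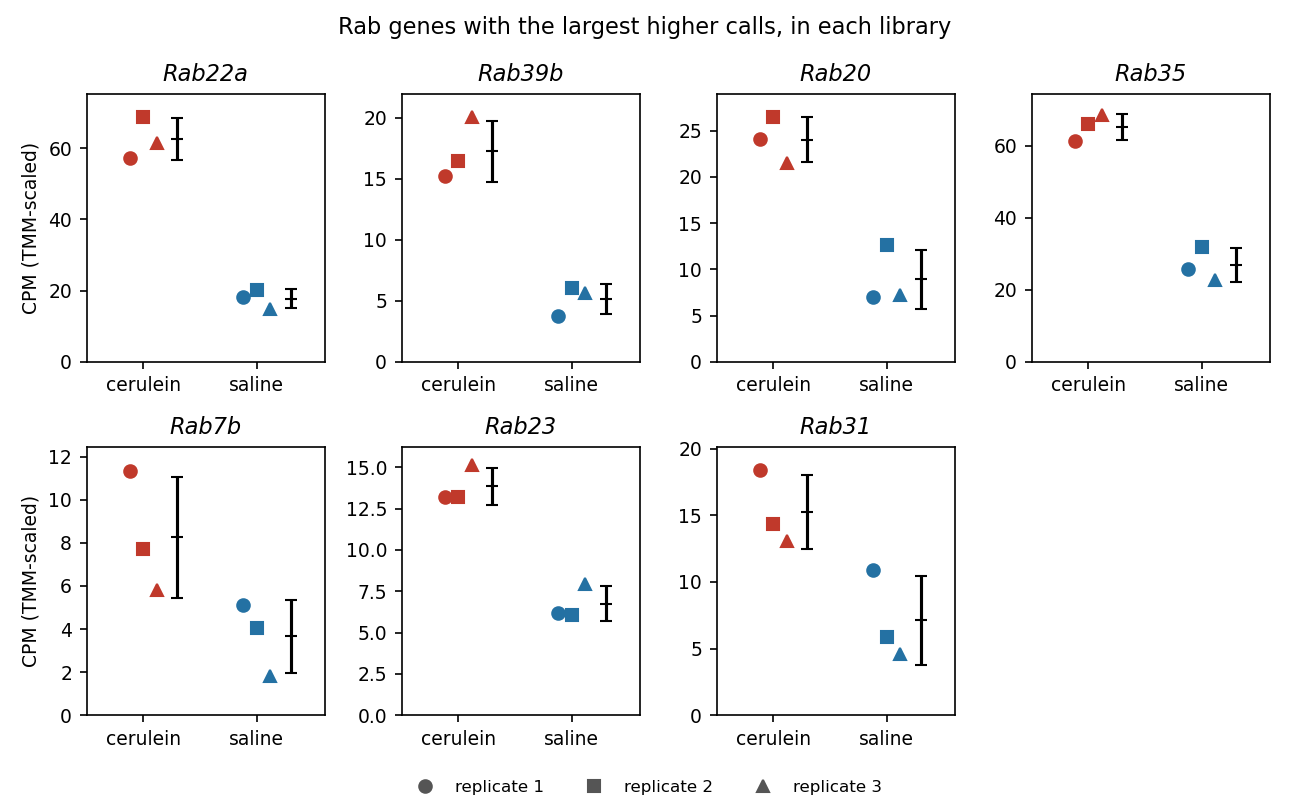
TMM-scaled CPM of the 7 Rab genes with the largest higher calls in each cerulein library (red) and each saline library (blue), with bars for mean ± SD (n = 3). All cerulein libraries lie above all saline libraries in each panel, with a wide gap for Rab22a, Rab39b and Rab35 and a narrow one for Rab7b and Rab31.

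The 5 members with too few counts to pass the filter with all 6 libraries were Rab30 (54 counts over the 6 libraries), Rab36 (44), Rab17 (51), Rab37 (65) and Rab15 (62). Rab36 had 0.602 ± 0.239 CPM in cerulein libraries and 1.78 ± 0.43 CPM in saline libraries, and Rab15 had 2.05 ± 0.77 CPM in cerulein libraries and 0.646 ± 0.376 CPM in saline libraries. Rab37, a further granule Rab, had 1.66 ± 0.82 CPM in cerulein libraries and 1.48 ± 0.28 CPM in saline libraries, so its groups overlapped. Rab30 had 1.04 ± 0.33 CPM in cerulein libraries and 1.70 ± 0.38 CPM in saline libraries, and Rab17 had 1.15 ± 0.27 CPM in cerulein libraries and 1.42 ± 0.34 CPM in saline libraries.

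Levels of different Rab genes were compared per kilobase of merged exons. In cerulein pancreas Rab7 was highest at 81.9 ± 10.7 CPM per kilobase, followed by Rab3d at 45.1 ± 2.7, Rab1a at 41.4 ± 2.3 and Rab5c at 33.0 ± 1.5. In saline pancreas Rab3d was highest at 64.8 ± 14.9 CPM per kilobase, followed by Rab2a at 55.5 ± 12.4, Rab1a at 47.6 ± 5.4 and Rab7 at 47.0 ± 4.5 (SD, n = 3 each). The leading 4 genes in saline pancreas lay within about 1 SD of their neighbors in that order, whereas Rab7 in cerulein pancreas stood clear of the next gene. The other granule Rabs were far below Rab3d. Rab26 was at 5.60 CPM per kilobase in cerulein pancreas and 8.94 in saline pancreas, and Rab27a at 2.29 in cerulein pancreas and 10.7 in saline pancreas. Rab27b was at 1.17 CPM per kilobase in cerulein pancreas and 2.66 in saline pancreas, and Rab3a at 0.601 in cerulein pancreas and 6.26 in saline pancreas. Rab genes as a whole took 0.239%, 0.227% and 0.243% of all counts in cerulein libraries and 0.163%, 0.138% and 0.135% in saline libraries (p = 0.1 in a two-sided exact permutation test, the lowest value that 3 against 3 libraries can give). Of counts outside the 20 highest genes they took 0.376% ± 0.003 in cerulein libraries and 0.391% ± 0.024 in saline libraries (exact permutation p = 0.4).

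Reads of some members may not be separable from those of neighbors or copies, since the sources used here state neither the annotation release nor whether strand was used in counting. Of the 50-base stretches of Rab43, 74.5% also occur in Gm45140, and of those of Rab7, 11.2% occur in other genes, the pseudogene Rab7-ps1 among them. Exons of other genes cover 64.0% of the exonic bases of Rab2b and 62.4% of those of Rab24. No member lies wholly inside another gene of the table. Rab3d lies on chromosome 9 at 21907491 to 21918199 (minus strand), Rab27a on chromosome 9 at 73044810 to 73097623 (plus strand) and Rab3a on chromosome 8 at 70754703 to 70758608 (plus strand). Rab22a lies on chromosome 2 at 173659836 to 173702186 (plus strand) and Rab39b on chromosome X at 75572045 to 75578231 (minus strand), all in RefSeq coordinates of GRCm38.p6, the assembly behind mm10.

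The machinery that acts on Rab proteins changed in both directions. Of 137 genes on 5 lists, 129 were tested, with 37 called higher and 36 lower, close to the 28.7% and 27.1% of all genes. The median log2 fold change was -0.07. In the prenylation and GDI group, 1 of 9 tested genes rose and 2 fell. Rabggta, the alpha subunit of the Rab geranylgeranyl transferase, had a log2 fold change of 1.38 ± 0.22. Yipf5 and Rabac1, membrane proteins that bind prenylated Rabs, had log2 fold changes of -1.30 ± 0.22 and -0.51 ± 0.17. Rabif (0.40) and Yif1a (-0.42) were not called, and Chml was listed at 0.

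Of 35 tested GEFs, 10 rose and 5 fell. Rin1, a Rab5 GEF that is also bound by RAS, had 75.3, 73.3 and 127 CPM in cerulein libraries and 4.45, 1.12 and 2.57 CPM in saline libraries. It was low in every saline library and high in every cerulein library, with a log2 fold change of 4.95 ± 0.39 (adjusted p = 5.52e-06, edgeR). Ric1, which with Rgp1 activates Rab6a, had 22.5, 20.9 and 30.7 CPM in cerulein libraries and 98.3, 117 and 79.3 CPM in saline libraries, a log2 fold change of -1.99 ± 0.19 against 0.94 for Rab6a. Rgp1 itself was called higher, with a log2 fold change of 0.52 ± 0.15. Dennd1a, a GEF of Rab35, had one of 1.21 ± 0.17, next to 1.28 for Rab35. Dennd1b and Dennd1c had log2 fold changes of 0.17 and 0.54 and were not called. Sh3bp5l, a GEF of Rab11, had one of 1.68 ± 0.17, and Dennd2c, a GEF of Rab9, one of 2.60 ± 0.41.

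Of 36 tested GAPs, 11 rose and 12 fell. Tbc1d10b, described in mouse acinar cells as a GAP of Rab27b, had 69.7, 72.6 and 71.2 CPM in cerulein libraries and 21.2, 24.1 and 22.1 CPM in saline libraries. Its libraries hardly varied within a group, and the log2 fold change was 1.67 ± 0.15 (adjusted p = 8.9e-07, edgeR). The related Tbc1d10a, a GAP of Rab27a and Rab35, had a log2 fold change of 1.94 ± 0.18. Tbc1d9 had one of 2.56 ± 0.19, Tbc1d25, a GAP of Rab33b in autophagy, one of 1.66 ± 0.21, and Tbc1d4, the insulin-regulated GAP of glucose transporter vesicles, one of -1.68 ± 0.21. Tbc1d7, with 55 counts over the 6 libraries, was not tested.

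Of 20 tested effectors of secretory Rabs, 7 were called higher and 7 lower, and with library size alone 8 were called higher and 1 lower. Myrip, which links Rab27a to myosins, had 2.95, 1.98 and 2.90 CPM in cerulein libraries and 14.8, 15.5 and 21.0 CPM in saline libraries, and Myo5c, a myosin of exocrine secretory granules, had 31.7, 29.8 and 31.2 CPM in cerulein libraries and 68.4, 62.3 and 72.6 CPM in saline libraries. Both were separated between the groups, with log2 fold changes of -2.70 ± 0.27 and -1.13 ± 0.14. Exoc6b, an exocyst subunit, had a log2 fold change of 2.23 ± 0.19, and Optn, an effector of Rab8 and an autophagy receptor, one of 1.74 ± 0.26. The related Exoc6, on the same list, was called lower at -1.27 ± 0.38. Micall2, a junctional effector of Rab13, had one of 1.76 ± 0.38. Rims1, Rims2 and Sytl3 held 34, 26 and 19 counts and were not tested, and Rph3a was listed at 0.

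Effectors of endosomal, recycling and Golgi Rabs rose in 8 and fell in 10 of 30 tested genes. Rab11fip3, which links Rab11 to motors, had 204, 204 and 235 CPM in cerulein libraries and 32.8, 30.1 and 25.4 CPM in saline libraries. Rab11fip1, a further partner of Rab11, had 70.1, 60.5 and 73.7 CPM in cerulein libraries and 15.4, 13.7 and 12.6 CPM in saline libraries. These Rab11 effectors rose, with log2 fold changes of 2.86 ± 0.17 and 2.28 ± 0.17, and Rab11fip4 fell by 1.72 ± 0.16 on the log2 scale, while Rab11a and Rab11b were not called. Rab11fip5 was also called higher (2.24 ± 0.25) and Rab11fip2 also called lower (-1.21 ± 0.20). Appl2, an effector of Rab5 on signaling endosomes, had 24.4, 21.8 and 21.3 CPM in cerulein libraries and 193, 151 and 182 CPM in saline libraries, a log2 fold change of -2.96 ± 0.17 (adjusted p = 2.55e-08, edgeR). On the same list, Appl1 and Eea1 were called higher, each with a smaller log2 fold change (0.83 and 0.64). Ocrl, an inositol phosphatase that binds several Rabs, had one of -1.75 ± 0.19. With library size alone, 13 of the 129 regulators and effectors were called lower.

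**Figure D5:**
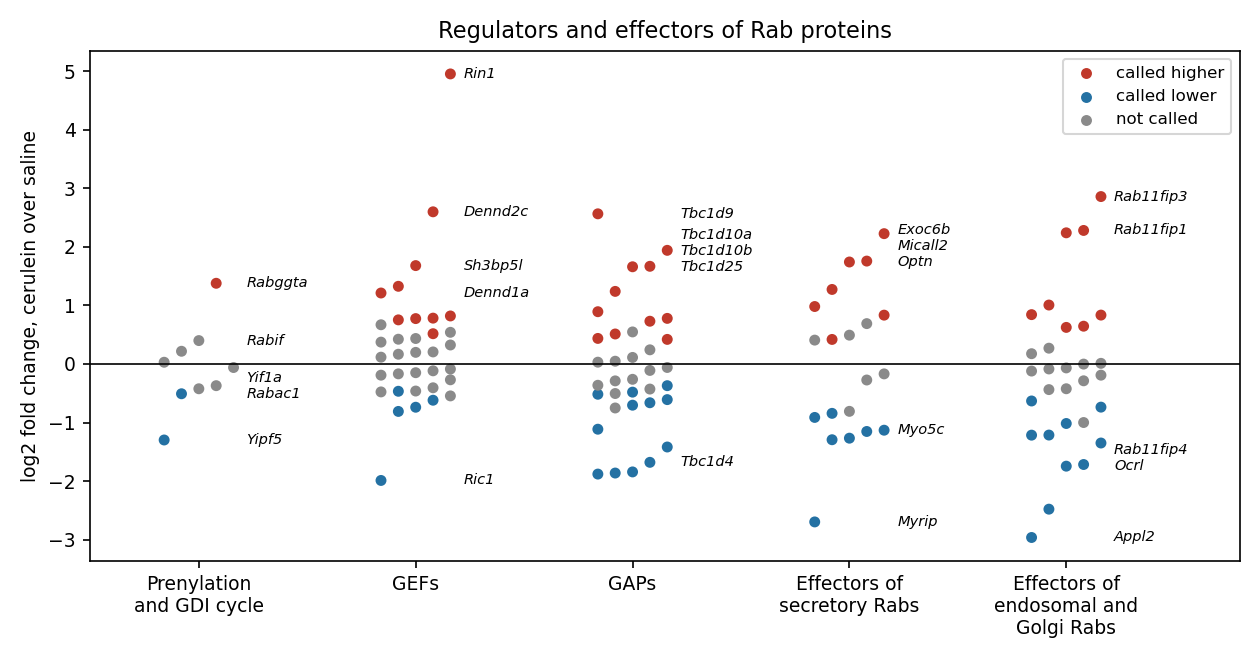
The log2 fold change, cerulein over saline, of every tested gene in the 5 lists of Rab regulators and effectors, colored by call, with the genes of smallest p named to the right of each list. Each list holds genes called in both directions, and Rin1 lies highest at 4.95 and Appl2 lowest at -2.96.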

How the data were processed

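Poly(A)-selected libraries were made with a strand-marking TruSeq kit, per the labels' protocols. The authors deposited a single table of raw counts, with a row for each gene and a column for each library. Trimmomatic, STAR, HTSeq and mm10 are named, per the submitters' processing notes, without versions. The counts were used as deposited. Genes were filtered with filterByExpr (minimum count 10, minimum total 15), scaled with TMM factors and tested with the two-sided quasi-likelihood F test of edgeR 4.0.16 in R 4.3.3, over all 6 libraries with group as the only term and Benjamini-Hochberg adjustment over 12441 genes. The standard error is the log2 fold change divided by the square root of F. Calls required an adjusted p under 0.05. Upper-quartile scaling, relative log expression factors, library size alone, other filters, DESeq2 1.42.0, limma-voom (limma 3.58.1), a replicate block and leaving out each library were tried. The fit was tested on simulated counts, where it recovered 11.9% of 1.5-fold, 64.2% of 2-fold and 100% of 4-fold changes. Of 12124 unchanged genes in that simulation, 7 were called. Only 66 or 67 genes were changed at each fold, and no wide shift in composition between the groups was built in. In the data 3574 genes were called higher and 3373 lower, so the recovery rates may not hold for the real fit. A Rab gene that was not called may still differ by a small amount. Exon lengths and overlaps came from GENCODE and positions from RefSeq.

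Members, role groups and gene lists were chosen with earlier results of these data known. Given in full were Rab3d, Rab27b, every tested granule Rab and the 10 called members of largest absolute log2 fold change whose groups do not overlap. From each regulator list, the 5 tested members of smallest p were named, in some lists with further members beside them. The other members were given in short. Total counts per library were 5335117 to 7610775. As nothing states that libraries came from separate animals, p-values measure only the spread between these libraries, which may be technical.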

Additional observations from a re-analysis of the deposited data

How the results depend on the processing

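Calls in the Rab family depended most on scaling. With upper-quartile factors 10 Rab genes were called higher, 4 of them at least 2-fold, and the median log2 fold change was -0.01. With library size alone 28 were called higher and 18 of them at least 2-fold, 2 were called lower and both at least 2-fold, the median was 0.77, and 13 regulators were called lower. The median of all genes moved with these settings, to -0.20 and 0.56, and all genes then split into 2895 higher and 4190 lower, and into 5181 higher and 1449 lower. With library size alone Rab3d turned to 0.094 and Rab18 to 0.53. The share of counts in Rab genes, cerulein minus saline, was 0.091 percentage points and turned to -0.015 outside the 20 highest genes. Leaving out 1 library at a time gave 5 to 9 Rab genes at least 2-fold higher. Of the 18 higher calls, 10 held in all 14 alternatives (Rab22a, Rab39b, Rab20, Rab35, Rab23, Rab31, Rab8b, Rab6a, Rab33b and Rab7), and of the 7 lower calls Rab3a and Rab27a did. DESeq2 called 13 higher and 7 lower. Of the 20 uncalled members, 13 were called in at least 1 alternative and 14 changed sign. A minimum of 10 counts in place of 30 gave 56 members, and a minimum of 100 gave 44. Libraries with the same replicate number had deviations correlated at 0.196, 0.226 and -0.158, so the number was not taken to pair them. With a replicate block, 20 Rab genes were called higher and 8 lower, 8 and 3 of them at least 2-fold, the median was 0.18, and 37 regulators were called higher and 36 lower. Not every cerulein library correlated best with the saline library of its own number. Depth limits the 5 members with 44 to 65 counts, which were tested only in some alternatives, such as without a count filter or with a CPM filter.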
